A study of Homo sapiens with 9 samples.

Results

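HCCLM3 is an established cell line derived from human hepatocellular carcinoma. Its cells had received either siRNA directed at UXS1 or a non-targeting siRNA, and poly(A) RNA was then sequenced. The comparison uses 6 of the 9 libraries of the series, 3 per group, taken by the group named in the heading of each column of the deposited table. The other 3 libraries, from cells given siRNA against MRPL42, a protein of the mitochondrial ribosome, entered the statistical fit so that the 3 groups shared one estimate of the spread. The labels give the same line, with no modification, for all groups, and all were transfected. The sequences and the number of the siRNAs, their dose and the time of harvest were not stated in the labels, and neither was the origin of a group's libraries in separate cultures. The p-values therefore measure the spread among these libraries alone, which may be technical.

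UXS1 is the decarboxylase that turns UDP-glucuronate into UDP-xylose in the Golgi lumen and the endoplasmic reticulum. Xylose is the first sugar placed on the core protein of a proteoglycan, so heparan sulfate and chondroitin sulfate chains depend on this enzyme. An siRNA works by guiding the cleavage of a matching mRNA, which makes the mRNA of the target the first check of such an experiment. A second program, the integrated stress response, is needed to read the results. In it, kinases that sense missing amino acids, unfolded proteins or other stresses phosphorylate the translation factor eIF2, and the transcription factor ATF4 is then made and induces genes of amino acid supply, tRNA charging and growth restraint.

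The 3 libraries of the UXS1 group held 17438126, 22400560 and 15302200 estimated counts in a, b and c, and the controls held 18903624, 17993219 and 19789708. Of 20379 genes in the table, 12657 passed a filter on low counts and were tested. Levels are given as CPM, counts scaled to a common library total after TMM adjustment, always in the order a, b, c. Control library c stood apart. Its Pearson's r with the other libraries, over log2 CPM of all tested genes, which are not independent replicates, was 0.953 to 0.964, whereas no other pair was below 0.984. It lay at 65.3 on the first principal component, which held 51.2% of the variance, and the other 8 libraries lay between -16.6 and -0.68. Within groups, edgeR estimated a common biological coefficient of variation of 0.1301, and 0.0755 when control library c was left out. Whether its cells were in another state or of another origin was not tested, and values over all 9 libraries include it. Calls over all genes and the medians of the main lists are therefore given with and without it, as is a called gene's value over all 9 libraries where it differs by more than 1.5 times. Cell identity was checked on marker genes. The 4 epithelial markers summed to 5583 to 7129 CPM in controls and 6560 to 6907 CPM in the UXS1 group, almost all of it KRT8 and KRT18. EPCAM stood at 0.31 to 0.63 CPM in these 6 libraries. CDH1 stood at 81.6 CPM in control library c against 22.9 to 28.3 CPM in the other 5. The 9 hepatocyte markers summed to 274 to 298 CPM in controls and 272 to 275 CPM in the UXS1 group. Control library c differed within that sum, with ALB at 3.61, TF at 12.5 and SERPINA1 at 1.22 CPM against at least 12.2, 37.8 and 3.37 CPM in controls a and b, and HNF4A at 110.7 against at most 57.6 CPM. Over these 6 libraries ALB stood at 3.61 to 14.4 CPM and APOA1 and TTR at 0.447 CPM or less. The liver cancer marker GPC3 had no count in any library and AFP stood at 1.64 to 2.64 CPM in these 6. The 5 fibroblast markers summed to 278 CPM in control library c, almost all of it LUM at 277 CPM, and to 36.2 to 44.9 CPM in the other 5. The 3 endothelial markers summed to 19.99 to 38.8 CPM, almost all of it PECAM1 at 19.25 to 38.61 CPM. The 4 leukocyte markers summed to 2.17 to 3.75 CPM, and CDH5 and MS4A1 had 0 counts in every library.

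The target came first. UXS1 mRNA (chr2:106093303-106194339, minus strand, GRCh38) stood at 144, 151 and 179.7 CPM in the control libraries and at 145, 138 and 141 CPM in the libraries labelled UXS1 siRNA. The targeted libraries lay close together, and library a of that group was above control library a, so the groups overlapped. The log2 fold change was -0.17 (95% confidence interval -0.36 to 0.03, edgeR adjusted p = 0.348) over all 9 libraries and -0.08 (-0.20 to 0.05, edgeR adjusted p = 0.519) without control library c, the control with the highest UXS1 level. The exact two-sided permutation test on CPM gave p = 0.2, and 3 libraries against 3 cannot go below 0.1. The lower ends of the intervals correspond to 77.9% and 86.8% of the control level, so a larger loss of UXS1 mRNA lay outside both intervals. The mRNA therefore gave no check of the label. The group is called the libraries labelled UXS1 siRNA, or UXS1-labelled, and every direction given is that of these libraries, whatever their UXS1 protein, which was not measured here.

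Genes around the enzyme itself stayed near their control levels. Of 11 tested genes that make UDP-glucuronate and UDP-xylose or build the 4-sugar linker, edgeR called 0 in either fit, 0 had an unadjusted p below 0.05, and DESeq2 and limma-voom called 0. The list median was -0.04 on the log2 scale over all 9 libraries and -0.02 without control library c, beside -0.00 over all genes tested. UGDH, the dehydrogenase that supplies UDP-glucuronate, stood at 802, 829 and 955 CPM in controls and 844, 778 and 834 CPM in UXS1-labelled libraries. XYLT2, a transferase that puts the first xylose on core proteins, stood at 26.7, 25.6 and 27.5 and 23.3, 25.3 and 24.1 CPM. B4GALT7, which adds the first galactose after xylose, stood at 19.97, 18.96 and 18.2 and 21.02, 23.2 and 21.4 CPM. In B4GALT7 all UXS1-labelled libraries were above all controls, by a log2 difference of 0.20 with all 9 libraries that did not pass the test (edgeR adjusted p = 0.332), while UGDH overlapped between the groups. In XYLT2 all UXS1-labelled libraries were below all controls, without passing (-0.14, edgeR adjusted p = 0.329).

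Farther along the pathway, edgeR called 0 of 31 tested heparan and chondroitin sulfate chain enzymes in either fit, with 4 at an unadjusted p below 0.05 in each fit, all lower, and 0 called by DESeq2 or limma-voom. The list median was -0.07 over all 9 libraries and -0.02 without control library c. CHST11, a chondroitin 4-O-sulfotransferase, stood at 26.6, 23.3 and 31.6 CPM in controls and 21.6, 21.2 and 21.1 CPM in UXS1-labelled libraries (-0.24 without control library c, edgeR adjusted p = 0.147). CHST15, which sulfates chondroitin sulfate further, stood at 39.01, 39.1 and 47.3 and 32.8, 32.1 and 35.99 CPM (-0.23, edgeR adjusted p = 0.144), and NDST1, which starts the sulfation of heparan sulfate, at 81.6, 82.4 and 100.4 and 76.6, 72.6 and 70.9 CPM (-0.17, edgeR adjusted p = 0.155). In these 3 genes every UXS1-labelled library was below every control, but none passed the threshold. Over the whole list, 4 of 31 genes lay in this way, beside 10.9% of all genes tested. The 4 genes lower at an unadjusted p below 0.05 stand beside 7.37% of all genes with 9 libraries. Without control library c that share was 8.98%. Among 15 tested proteoglycan cores, 1 fell without control library c. This was VCAN, which encodes versican, a large chondroitin sulfate proteoglycan of the matrix, at 106, 117 and 329 CPM in controls and 84.4, 80.7 and 89.3 CPM in UXS1-labelled libraries (-0.41, SE 0.07, edgeR adjusted p = 0.0191). Control library c had the highest VCAN level by far, and the groups did not overlap. Over all 9 libraries its log2 fold change was -1.12 (edgeR adjusted p = 0.197). CEMIP, named after its values were seen, encodes a hyaluronan-binding protein of hyaluronan breakdown, and it also fell without control library c, from 93.4 and 90.8 CPM in controls a and b to 60.4, 63.1 and 62.99 CPM (-0.58, edgeR adjusted p = 0.00168). Control library c was higher still at 181 CPM, which put the log2 fold change over all 9 libraries at -0.97 (edgeR adjusted p = 0.171).

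With all 9 libraries, 2 of 12657 genes passed an adjusted p of 0.05 in edgeR's quasi-likelihood test (0.0158%), and both fell. No gene rose at that threshold, although 1316 higher genes (10.4%) and 933 lower genes (7.37%) had an unadjusted p below 0.05 and DESeq2 called 314 higher and 146 lower. CPLX2 (chr5:175796310-175884020, plus strand) encodes complexin 2, a SNARE-binding regulator of vesicle fusion known mainly from neurons. It stood at 13.8, 12.9 and 14.6 CPM in controls and at 7.22, 7.33 and 7.45 CPM in UXS1-labelled libraries, with a log2 fold change of -0.91 (SE 0.09, edgeR adjusted p = 0.0304). STC2 (chr5:173314713-173329503, minus strand) encodes stanniocalcin 2, a secreted glycoprotein induced by stress through ATF4. It stood at 102, 93.7 and 113 CPM in controls and 53.6, 59.9 and 60.3 CPM in UXS1-labelled libraries, with a log2 fold change of -0.83 (SE 0.09, edgeR adjusted p = 0.0304). In both genes the controls, c included, formed one tight group and the UXS1-labelled libraries another, with a gap between them wider than either group. Neither call outlasted the loss of a control or UXS1-labelled library other than control library c. In those 5 omissions the log2 fold change was -0.95 to -0.90 for CPLX2 and -0.89 to -0.77 for STC2, with edgeR adjusted p-values of 0.0715 to 0.294. Of 15 tested genes of complexins, SNAREs and synaptotagmins CPLX2 was the 1 past the threshold in either fit.

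Leaving out control library c raised the count to 197 genes (1.56%), of which 62 rose (0.49%) and 135 fell (1.07%). All 62 rises and 133 of the 135 falls missed the threshold with all 9 libraries, so the words rose and fell below refer to the fit without control library c for every gene but CPLX2 and STC2. Most of these changes were small: 46 of the 62 rises and 90 of the 135 falls were under 1.5-fold, and 3 and 12 were over 2-fold. At an unadjusted p below 0.05 there were 1293 higher (10.2%) and 1137 lower genes (8.98%). Control library c did not enter the test that chose the 197, but the UXS1-labelled libraries, beside which its level is set here, did. For 71 of the 135 falls (52.6%) control library c was above all UXS1-labelled libraries, as controls a and b were, and for 49 (36.3%) it was below all of them. For 42 of the 62 rises (67.7%) it was below all UXS1-labelled libraries, as the other controls were, and for 14 (22.6%) above. Over all tested genes control library c was above the UXS1-labelled libraries in 39.4% and below in 41%. The choice of the 197 favoured genes whose UXS1-labelled libraries lay low or high. These shares are therefore no like baseline, and no conclusion is drawn from the difference. The plot of fold change against level shows the called genes on both sides, with UXS1 itself near 0.

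**Figure D1:**
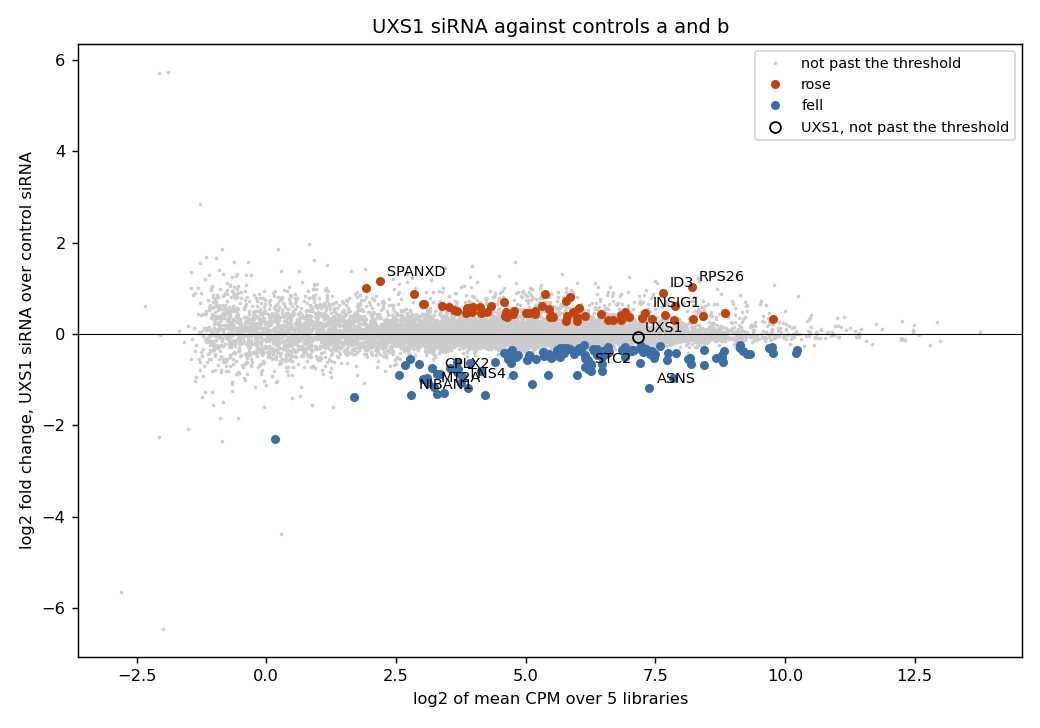
Log2 fold change of UXS1-labelled libraries over control libraries a and b for 12657 tested genes (y axis) against the log2 of mean CPM over these 5 libraries (x axis). Coloured points are the 62 genes that rose and the 135 that fell at an edgeR adjusted p below 0.05, grey points did not pass, and the open circle is UXS1, at -0.08.

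The number of calls without control library c also hung on the remaining controls. A second omission left 21 calls without control library a, 37 without control library b, 57 without UXS1-labelled library a, 105 without b and 84 without c. A core of 20 genes passed in each of these 5 omissions and all 20 fell. From the largest fall to the smallest they were NIBAN1, SLC6A9, ALDH1L2, ASNS, SESN2, PSAT1, IGFBP1, CPLX2, TXNIP, STC2, GARS1, SLC7A1, MARS1, GPT2, DUSP6, XPOT, CEMIP, TARS1, ERRFI1 and ITIH2. Of these, 12 are on the stress response list, mostly genes that make, carry or charge amino acids. XPOT, the exporter of tRNAs from the nucleus, stood at 555, 571 and 365 CPM in controls and 363, 358 and 396 CPM in UXS1-labelled libraries, and ERRFI1, an inhibitor of the EGF receptor, at 522, 542 and 376 and 377, 374 and 389.7 CPM. Both were named after their values were seen, and in both control library c lay among the UXS1-labelled libraries.

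The largest group of falling genes was the integrated stress response. Of its 59 tested members, 38 fell and 0 rose without control library c (1 had an unadjusted p below 0.05 on the higher side, and DESeq2 called 44 lower and 0 higher). The list median was -0.47, beside -0.00 over all genes, of which 1.07% fell and 0.49% rose. With all 9 libraries the median was -0.34, STC2 alone passed, 28 members had an unadjusted p below 0.05 on the lower side and 17 of 59 had every UXS1-labelled library below every control (10.9% of all genes did). Control library c split the 38: it was above all UXS1-labelled libraries in 11 and below all of them in 22. The median relative log2 CPM of the list, each gene centred on its mean over 9 libraries, was 0.36, 0.35 and -0.19 in control libraries a, b and c and -0.16, -0.09 and -0.08 in UXS1-labelled libraries. As a list, therefore, controls a and b were high and control library c was below all UXS1-labelled libraries, though close to library a. The labels give no ground for preferring either state of the controls, so the list is given in both ways. In bulk RNA, fewer cells with an active program and less RNA of it per cell cannot be told apart either.

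**Figure D2:**
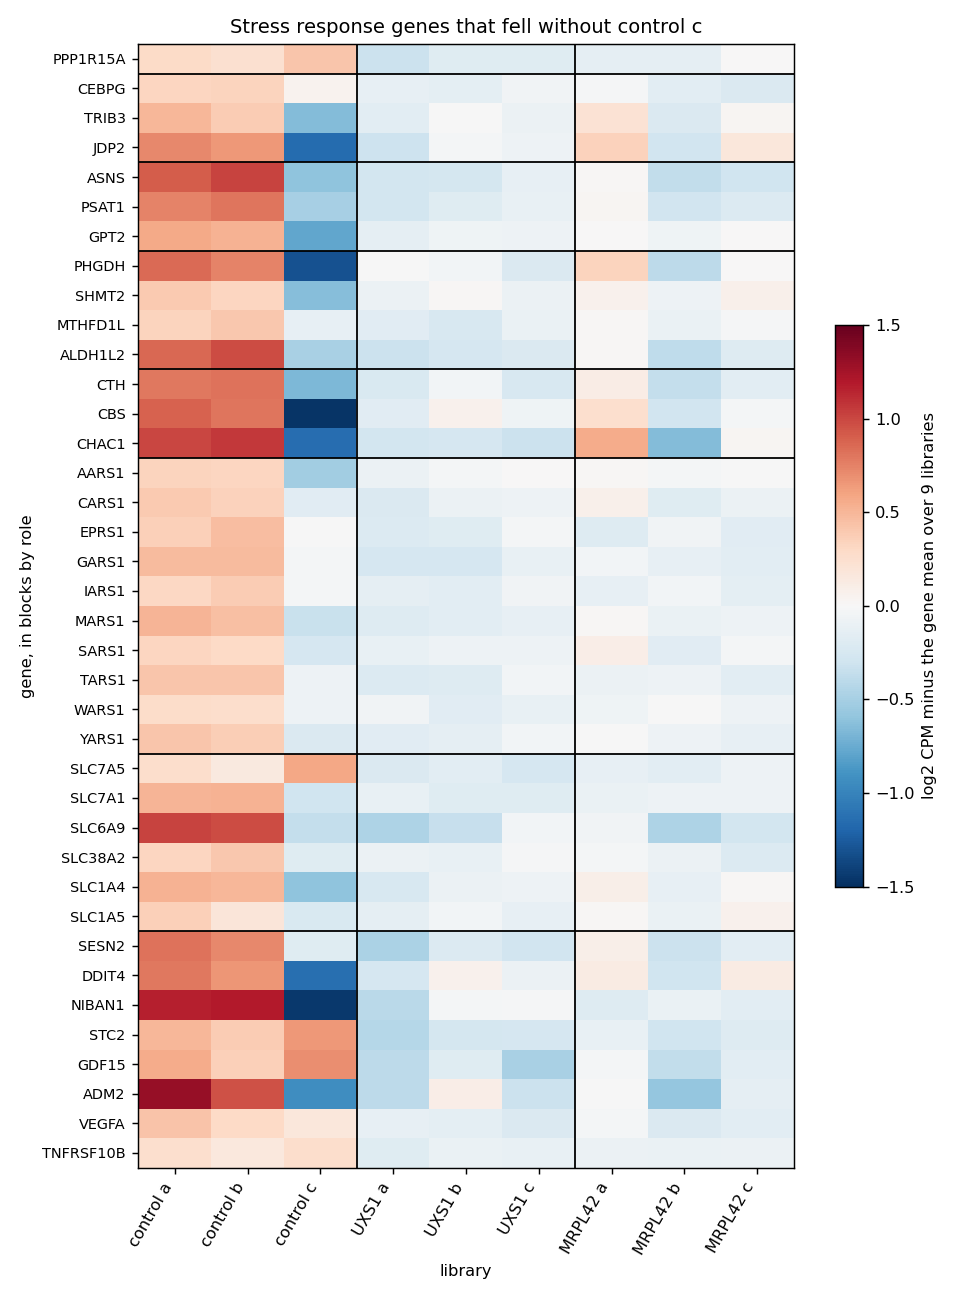
Log2 CPM minus each gene's mean over 9 libraries (colour, -1.5 to 1.5) for the 38 stress response genes that fell without control library c (rows, in blocks by role) in each library (columns). Control libraries a and b are high throughout, while control library c is high for PPP1R15A, SLC7A5, STC2 and GDF15 and low for ASNS, CHAC1, PHGDH and NIBAN1.

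Many promoters of these genes hold an element bound by ATF4 together with a C/EBP protein. To show what these promoters share, the letters TGATGNAA were searched on both strands in the 250 bases before each RefSeq gene start. Of 48 list genes with a promoter sequence, 11 (22.9%) held a match, against 242 of 10202 genes tested (2.37%). Over windows the share was 12 of 75 (16%), against 1.72% of windows of tested genes and 3.14% of all 35116 windows. Among the genes that fell, 9 of 32 with a sequence held it (28.1%). The list gathers genes known for this response and was chosen with earlier results of these data known. A share above that of all genes was therefore built into the choice and tests nothing here. The following 30-base stretches run 5′ to 3′ on the strand of the gene, from RefSeq on GRCh38.p14, with the match in capitals. The first 6 belong to genes that fell without control library c and the last pair to list members that did not pass, to show that the same letters stand before both.
ASNS: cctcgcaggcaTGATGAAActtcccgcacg
CHAC1: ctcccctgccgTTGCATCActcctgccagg
CEBPG: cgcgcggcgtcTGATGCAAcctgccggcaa
GARS1: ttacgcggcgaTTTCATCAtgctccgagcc
MTHFD1L: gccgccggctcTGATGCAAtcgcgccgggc
SLC1A5: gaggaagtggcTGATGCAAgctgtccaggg
ATF3: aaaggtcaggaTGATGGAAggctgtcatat
PPP1R15B: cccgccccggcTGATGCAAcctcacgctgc
The ASNS stretch is chr7:97872458-97872487 on the minus strand and its match ends 61 bases before the start. The GARS1 stretch is chr7:30594834-30594863 on the plus strand, and that of CHAC1 is chr15:40953251-40953280 on the plus strand. CHAC1 and GARS1 carry the element as its reverse complement. A match is a description of the sequence and no evidence of binding in these cells.

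Among the regulators of the stress response, 3 of 9 transcription factors and related genes fell. ATF4, the central factor, stood at 332, 331 and 183 CPM in controls and 232, 259 and 254 CPM in UXS1-labelled libraries, -0.43 without control library c (edgeR adjusted p = 0.06901, DESeq2 called it lower). With a correction for transcript length in that fit, ATF4 passed (-0.46, edgeR adjusted p = 0.00898). DDIT3, which encodes CHOP, a factor that promotes cell death under prolonged stress, stood at 80.7, 78.8 and 58.3 and 75.3, 86.02 and 81.1 CPM and overlapped between the groups. Its log2 fold change of 0.01 without control library c (edgeR adjusted p = 0.977) became -0.28 after a correction for transcript length (edgeR adjusted p = 0.0351). TRIB3, a pseudokinase that restrains ATF4, fell from 515 and 477 CPM in controls a and b to 328, 363 and 346 CPM (-0.53, edgeR adjusted p = 0.0366). CEBPG, a partner of ATF4, fell from 111 and 111 to 81.1, 80.2 and 85.5 CPM (-0.45, edgeR adjusted p = 0.00938), and JDP2, a repressor of the AP-1 and ATF family, from 17.6 and 16.8 to 8.65, 10.5 and 10.2 CPM (-0.83, edgeR adjusted p = 0.0294). Control library c was above the UXS1-labelled libraries for CEBPG at 92.1 CPM, and below them for TRIB3 at 233 CPM and JDP2 at 4.83 CPM. Over all 9 libraries TRIB3 stood at -0.24 and JDP2 at -0.42 on the log2 scale (edgeR adjusted p = 0.631 and 0.598). PPP1R15A encodes GADD34, which brings the phosphatase to eIF2 and ends the response. It stood at 109, 105 and 119 CPM in controls and 70.98, 78.5 and 78.5 CPM in UXS1-labelled libraries (-0.51, SE 0.07, edgeR adjusted p = 0.006703). All 3 controls were above all UXS1-labelled libraries, and PPP1R15A was the 1 of 9 kinases and translation control genes that fell.

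Of 4 tested genes of asparagine, glutamate and proline synthesis 3 fell without control library c, as did 4 of 5 serine and folate enzymes and 3 of 4 genes of the branch from homocysteine to cysteine and glutathione. Of these 13, edgeR called 0 with all 9 libraries, and the 3 medians were -0.48, -0.39 and -0.54 against -0.81, -0.55 and -0.94. ASNS, asparagine synthetase, stood at 243, 261 and 85.3 CPM in controls and 107, 107 and 119 CPM in UXS1-labelled libraries. Without control library c its log2 fold change was -1.19 (SE 0.10, edgeR adjusted p = 0.00118), and with it -0.82 (edgeR adjusted p = 0.253). Controls a and b were more than 2-fold above every UXS1-labelled library, and control library c was below them all. Control library c was likewise the lowest, and controls a and b the highest, for PSAT1, the aminotransferase of serine synthesis, at 317, 329 and 134 against 156, 167 and 175 CPM (-0.97, edgeR adjusted p = 0.00129), and GPT2, the mitochondrial alanine aminotransferase, at 115, 112 and 45.3 against 70.8, 74.4 and 73.5 CPM (-0.65, edgeR adjusted p = 0.00118). PHGDH, the first enzyme of serine synthesis, changed by a log2 fold change of -0.89, SHMT2, which passes a carbon from serine to folate in mitochondria, by -0.42, and ALDH1L2, a mitochondrial folate enzyme, by -1.19. MTHFD1L, another such enzyme, stood at 44.1, 46.5 and 32.2 CPM in controls and 31.1, 29.7 and 32.8 CPM in UXS1-labelled libraries (-0.55, edgeR adjusted p = 0.00569), and its control library c lay within the UXS1-labelled range. In the branch from homocysteine to cysteine and glutathione, CHAC1, which degrades glutathione, stood at 15.01, 15.6 and 3.39 CPM in controls and 6.19, 6.304 and 6.02 CPM in UXS1-labelled libraries (-1.32, SE 0.23, edgeR adjusted p = 0.0204). CTH, cystathionine gamma-lyase, fell from 11.4 and 11.6 CPM in controls a and b to 5.61, 6.39 and 5.57 CPM (-0.98, edgeR adjusted p = 0.006703), with 4.14 CPM in control library c. CBS, cystathionine beta-synthase, changed by -0.90, but a near-identical copy of this gene in the reference makes its counts uncertain. For CHAC1, CTH and CBS control library c was the lowest of the 6 libraries. Over all 9 libraries the log2 fold changes were smaller, at -0.65 for PSAT1, -0.32 for GPT2, -0.46 for PHGDH and -0.15 for SHMT2. In that fit CHAC1 stood at -0.88, CTH at -0.62 and CBS at -0.45 (edgeR adjusted p = 0.377, 0.354 and 0.631).

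Of 12 aminoacyl-tRNA synthetases, which charge tRNAs with amino acids, 10 fell without control library c, and the median of the 12 was -0.49 (-0.33 with all 9 libraries). GARS1, for glycine, stood at 450.2, 450.5 and 318 CPM in controls and 272, 272 and 299.7 CPM in UXS1-labelled libraries (-0.69, SE 0.06, edgeR adjusted p = 0.00128). EPRS1, for glutamate and proline, stood at 334, 359.7 and 261 and 227, 229.9 and 257 CPM (-0.56, edgeR adjusted p = 0.00431). In both genes every control, c included, was above every UXS1-labelled library. MARS1 (-0.65), TARS1 (-0.57) and YARS1 (-0.52), for methionine, threonine and tyrosine, also fell, and their control library c, at 211, 186 and 142 CPM, was below or among the UXS1-labelled libraries. Over all 9 libraries MARS1 stood at -0.42 and YARS1 at -0.33 on the log2 scale (edgeR adjusted p = 0.274 and 0.274).

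Of 7 amino acid transporters, 6 fell. SLC7A5, the large neutral amino acid carrier LAT1, stood at 1067, 978 and 1325 CPM in controls and 763, 794 and 742 CPM in UXS1-labelled libraries (-0.43, SE 0.06, edgeR adjusted p = 0.00731). Its 3 controls were above all UXS1-labelled libraries, with control library c the highest. SLC7A1, a carrier of arginine and lysine, stood at 98.03, 98.5 and 56.2 and 63.8, 60.7 and 60.7 CPM (-0.68, edgeR adjusted p = 0.00118), SLC6A9, a glycine transporter, at 16.7, 16.4 and 6.47 and 6.01, 6.53 and 8.03 CPM (-1.29, edgeR adjusted p = 0.00168). SLC38A2, the glutamine carrier SNAT2, changed by -0.45 and SLC1A4, a carrier of serine and alanine, by -0.66. In these 4 control library c was within or below the UXS1-labelled range, and over all 9 libraries SLC7A1 stood at -0.45, SLC38A2 at -0.28 and SLC1A4 at -0.36 on the log2 scale (edgeR adjusted p = 0.245, 0.318 and 0.463).

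The growth brakes and secreted factors of the response had a median of -0.83 with all 9 libraries, where 1 of 9 fell (STC2), and of -0.82 without control library c, where 8 fell. GDF15, a secreted stress cytokine, stood at 111, 96.8 and 122 CPM in controls and 57.3, 66.1 and 53.8 CPM in UXS1-labelled libraries (-0.82, SE 0.11, edgeR adjusted p = 0.00682). As with STC2, control library c was the highest of all and no control reached down to the UXS1-labelled libraries. SESN2, an inhibitor of mTORC1 when leucine is short, stood at 52.5, 49.3 and 26.4 and 21.5, 25.8 and 24.4 CPM (-1.10, edgeR adjusted p = 0.00172), and its control library c was just above the UXS1-labelled libraries. NIBAN1, a stress-induced regulator of translation, stood at 10.8, 10.9 and 1.75 and 3.61, 4.69 and 4.73 CPM (-1.33, edgeR adjusted p = 0.00137). DDIT4, another inhibitor of mTORC1, changed by -0.82 and ADM2, a secreted peptide of the adrenomedullin family, by -1.33. For NIBAN1, DDIT4 and ADM2 control library c was the lowest library, and over all 9 libraries NIBAN1 stood at -0.85 and DDIT4 at -0.41 (edgeR adjusted p = 0.413 and 0.601). The separate list of 22 endoplasmic reticulum chaperones and degradation genes had a median of 0.05 over all 9 libraries, where edgeR called 0 (4 at an unadjusted p below 0.05, all higher, and 2 called higher by DESeq2). Without control library c the median was -0.04, with 1 fall and 0 rises in edgeR, 3 higher and 4 lower at an unadjusted p below 0.05, and 2 higher and 1 lower in DESeq2. The fall was ERN1, which encodes the sensor kinase IRE1, at 33.95, 34.8 and 22.6 CPM in controls and 24.4, 24.9 and 25.6 CPM in UXS1-labelled libraries (-0.47, edgeR adjusted p = 0.0191), with control library c the lowest. Over all 9 libraries ERN1 stood at -0.29 (edgeR adjusted p = 0.348).

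**Figure D3:**
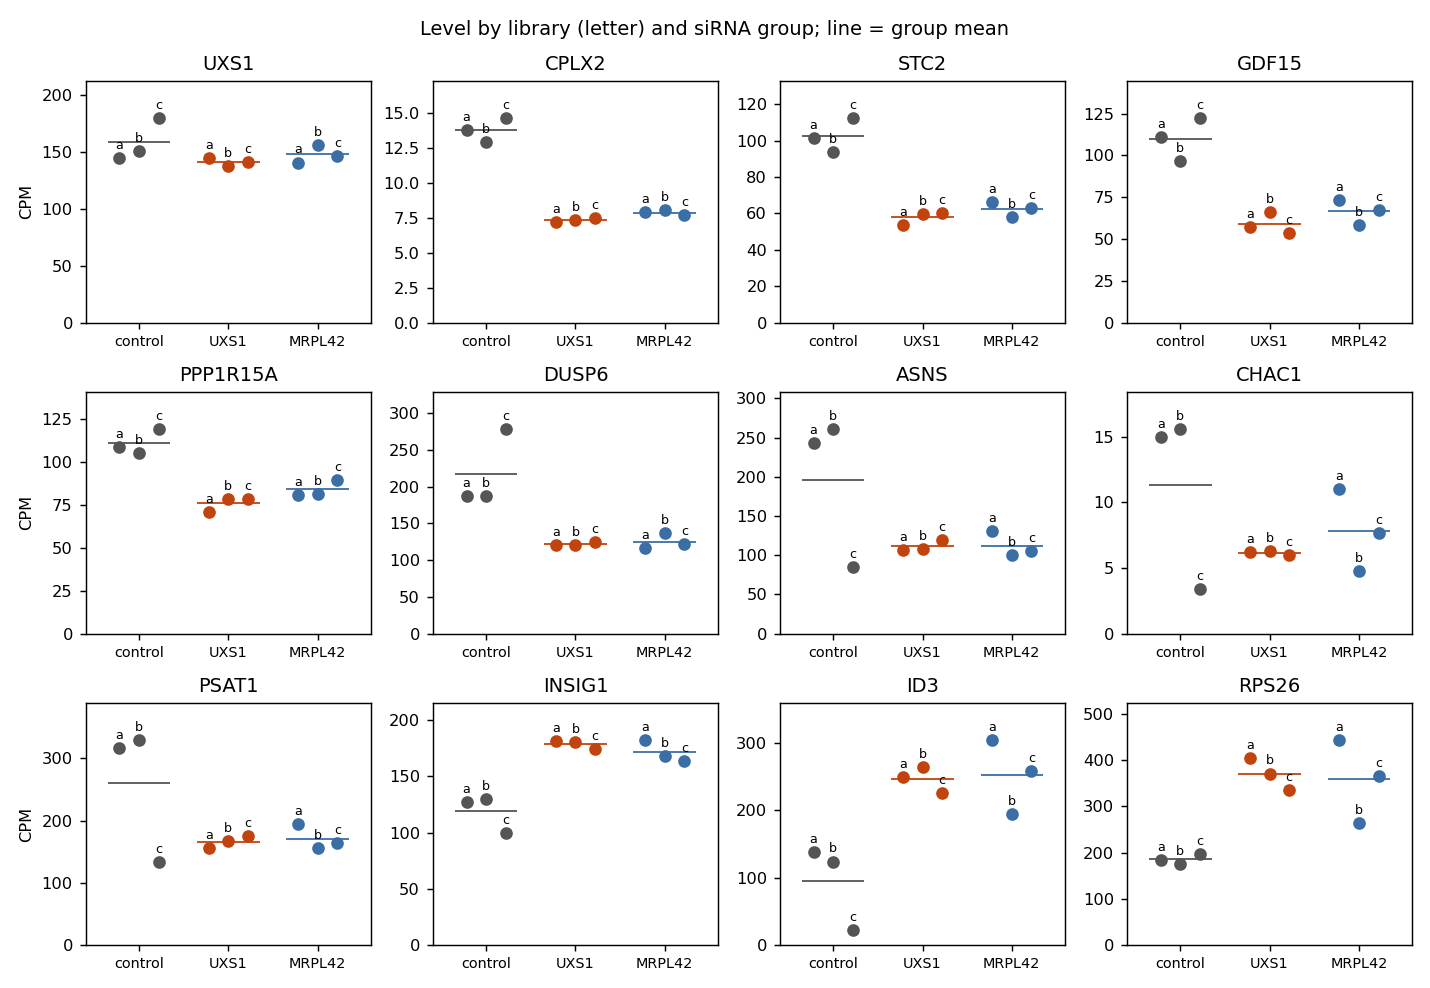
Level in CPM (y axis, from 0) of 12 genes in each library (points, with the library letter) for the control, UXS1-labelled and MRPL42 siRNA groups (x axis), with lines at group means. CPLX2, STC2, GDF15, PPP1R15A and DUSP6 separate all 3 controls from the UXS1-labelled libraries, whereas ASNS, CHAC1 and PSAT1 have control library c at the bottom.

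In a second group, control library c lay mostly on the side of the other controls. Genes that ERK signalling induces and that feed back on it had a median of -0.39 over all 9 libraries and -0.28 without control library c. Of 17 tested, 8 fell without control library c (1.07% of all genes did) and 12 had every UXS1-labelled library below all 3 controls (10.9% of all genes did). Neither edgeR nor limma-voom called any with all 9 libraries, where 11 were lower at an unadjusted p below 0.05 and DESeq2 called 8 lower. For 7 of the 8, control library c was above the UXS1-labelled libraries. DUSP6, the cytoplasmic phosphatase of ERK, stood at 187, 188 and 278 CPM in controls and 120.3, 120.4 and 124 CPM in UXS1-labelled libraries (-0.63, SE 0.06, edgeR adjusted p = 0.00168, against -0.84 and 0.107 over all 9 libraries). DUSP5, a nuclear phosphatase of ERK, stood at 99.5, 97.7 and 100.3 and 68.2, 76.2 and 73.1 CPM (-0.45, edgeR adjusted p = 0.00732), and DUSP4, another, at 159, 146 and 197 and 116, 124 and 116 CPM (-0.37, edgeR adjusted p = 0.0122). SPRED2, an inhibitor of RAS to RAF signalling, stood at 99.7, 104 and 110.3 and 80.4, 78.1 and 76.8 CPM (-0.39, edgeR adjusted p = 0.00744). In these 4 genes each control was above each UXS1-labelled library, and the controls differed most in DUSP6, where c was far above a and b. The ETS factors ETV4 and ETV5 changed by -0.43 and -0.47, and for ETV4 control library c, at 35.8 CPM, was below the UXS1-labelled libraries (-0.27 over all 9 libraries, edgeR adjusted p = 0.323). TNS4, a focal adhesion protein, fell from 20.2 and 19.4 CPM in controls a and b to 9.68, 9.84 and 8.61 CPM (-1.08, edgeR adjusted p = 0.00526), with 102 CPM in control library c and -2.32 over all 9 libraries (edgeR adjusted p = 0.171).

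AP-1 and immediate early genes, which are transcribed within minutes of a stimulus, had a median of -0.34 over all 9 libraries and -0.24 without control library c, and 4 of 20 fell in the latter fit. In the fit of all 9, edgeR called 0, with 11 lower at an unadjusted p below 0.05 and 5 called lower by DESeq2. Of all genes tested, 1.07% fell without control library c. With all 9 libraries 7.37% were lower at an unadjusted p below 0.05. FOS, an AP-1 subunit, stood at 9.54, 9.94 and 8.64 CPM in controls and 6.64, 6.44 and 5.63 CPM in UXS1-labelled libraries (-0.65, SE 0.12, edgeR adjusted p = 0.0214). EGR1, a zinc finger factor induced by serum, stood at 20.7, 17.7 and 26.7 and 12.9, 13.7 and 10.8 CPM (-0.63, edgeR adjusted p = 0.0206). KLF4 changed by -0.43 and KLF6 by -0.28, both Krüppel-like factors. For all 4, control library c was above every UXS1-labelled library. JUN, the usual partner of FOS, stood at 126, 108 and 208 and 105, 117 and 102 CPM, overlapped between the groups and did not pass (-0.13, edgeR adjusted p = 0.411). Among 12 YAP and TAZ targets edgeR called 0 without control library c, with 5 lower at an unadjusted p below 0.05, 1 called lower by DESeq2 and 0 by limma-voom. The share of all genes lower at that unadjusted p was 8.98%. CCN2, the best known of them, stood at 37.7, 32.3 and 39.5 and 25.3, 28.3 and 23.5 CPM (-0.45, edgeR adjusted p = 0.0571). With the correction for transcript length CCN2 passed (-0.46, edgeR adjusted p = 0.0221).

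Several of the largest single falls are on neither the stress response list nor the ERK feedback list used here. IGFBP1, a secreted binding protein of insulin-like growth factors made in liver, stood at 90.3, 85.3 and 127 CPM in controls and 46.6, 48.9 and 46.1 CPM in UXS1-labelled libraries (-0.91, SE 0.09, edgeR adjusted p = 0.00168). CDKN2B, the cell cycle inhibitor p15, stood at 16.5, 17.9 and 20.1 and 8.94, 10.5 and 10.8 CPM (-0.78, edgeR adjusted p = 0.00732). TXNIP, which binds thioredoxin and limits glucose uptake, stood at 22.2, 25.2 and 18.1 and 12.9, 13.7 and 13.98 CPM (-0.82, edgeR adjusted p = 0.00176). In all 3 the controls, c included, lay above all UXS1-labelled libraries. IL20RB, a cytokine receptor chain, changed by -0.93, LAT2, an adaptor of lymphoid signalling, by -0.91, and HMCN1, a large matrix protein, by -0.96, again with control library c above (HMCN1 -1.44 over all 9 libraries, edgeR adjusted p = 0.169). KIF21B, a kinesin, stood at 13.9, 13.96 and 3.77 and 8.71, 6.88 and 7.19 CPM (-0.89), with control library c the lowest and -0.47 over all 9 libraries (edgeR adjusted p = 0.553). ARHGAP11A-SCG5 changed by -1.38, but it is a readthrough transcript of neighbouring genes and its counts are uncertain. Metallothioneins, small proteins that bind zinc and copper, were mostly too low to test: 4 of 11 list genes passed the filter, 2 fell without control library c, and with all 9 libraries edgeR and DESeq2 called 0, with 2 at an unadjusted p below 0.05. MT2A stood at 15.1, 12.9 and 3.66 and 5.499, 6.57 and 6.797 CPM (-1.16, edgeR adjusted p = 0.00242) and MT1X at 2.42, 1.85 and 0.477 and 0.516, 0.492 and 0.259 CPM (-2.30, edgeR adjusted p = 0.00857). MT2A in control library c was below the UXS1-labelled libraries, with -0.75 over all 9 libraries (edgeR adjusted p = 0.367), and the near-identical sequences of this family make the split of its reads uncertain. Of 19 antioxidant genes under NRF2, 1 fell, SRXN1, a sulfiredoxin, at 621, 621 and 663 and 521, 518 and 543 CPM (-0.25, edgeR adjusted p = 0.0421).

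On the other side, genes of cholesterol synthesis had the most rises of the 36 lists without control library c. All 21 tested members were above 0 with all 9 libraries (median 0.39) and 20 of 21 without control library c (median 0.30), where 6 rose. Of all genes tested, 0.49% rose in that fit. In 13 of 21 every UXS1-labelled library was above all 3 controls, against 15.3% of all genes. With all 9 libraries edgeR called 0, with 13 higher at an unadjusted p below 0.05, 11 called by DESeq2 and 0 by limma-voom. In the arm that leads to squalene, IDI1, the isomerase of isoprenoid units, stood at 96.5, 99.3 and 118 CPM in controls and 138, 137 and 136 CPM in UXS1-labelled libraries (0.48, SE 0.05, edgeR adjusted p = 0.00242). FDFT1, squalene synthase, stood at 366, 383 and 283 and 531, 509 and 518 CPM (0.46, edgeR adjusted p = 0.0123). In the later arm from lanosterol to cholesterol, DHCR7, the last reductase, stood at 207, 201 and 156 and 249, 258 and 254 CPM (0.30, edgeR adjusted p = 0.0184). MSMO1, a methyl sterol oxidase, rose relative to controls a and b, from 164 and 182 CPM to 228, 233 and 229.6 CPM (0.40, edgeR adjusted p = 0.0235), but control library c was above all UXS1-labelled libraries at 263 CPM, and the log2 fold change over all 9 libraries was 0.18 (edgeR adjusted p = 0.549). NSDHL rose by 0.31 and HSD17B7 by 0.46, both enzymes of the sterol ring, and the reads of HSD17B7 may be shared with its pseudogenes.

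Among the genes that sense and move sterols, 1 passed. INSIG1, which holds the SREBP complex in the endoplasmic reticulum and is itself an SREBP target, stood at 127, 129.9 and 99.6 CPM in controls and 182, 180.5 and 174 CPM in UXS1-labelled libraries (0.47, SE 0.06, edgeR adjusted p = 0.00569). The groups were well apart, and INSIG1 was the 1 of 16 sensing and transport genes that rose. Of 16 genes of fatty acid synthesis, 2 rose without control library c. ACSS2, which makes acetyl-CoA from acetate, stood at 58.9, 58.5 and 48.3 and 80.1, 76.99 and 77.4 CPM (0.40, edgeR adjusted p = 0.00857) and FADS2, a desaturase, at 288, 284 and 97.7 and 369, 393 and 369 CPM (0.39, edgeR adjusted p = 0.00732). In both genes all controls were below all UXS1-labelled libraries, and control library c was the lowest library, so that FADS2 stood at 0.76 over all 9 libraries (edgeR adjusted p = 0.263). A core of the sterol response element, TCACNCCAC, searched on both strands, had 0 matches in 23 promoter windows of 16 cholesterol synthesis genes, and 0.845% of windows of tested genes held it. That says only that these letters are not in those windows.

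The list medians in both fits show these opposite shifts side by side, together with lists that depend on control library c or on transcript length.

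**Figure D4:**
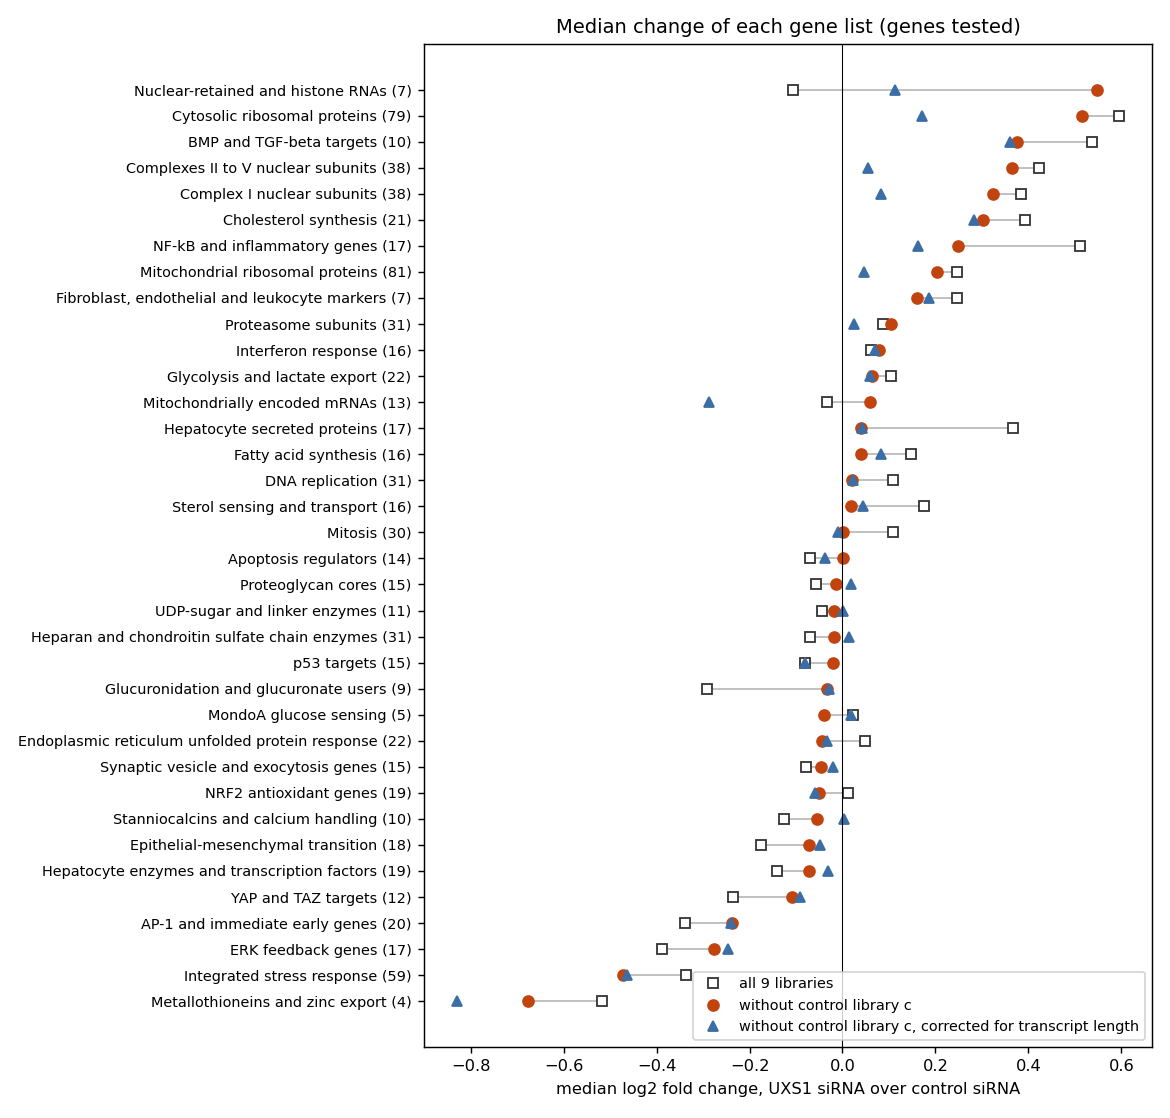
Median log2 fold change of UXS1-labelled over control libraries (x axis) for each of 36 gene lists (y axis, genes tested in parentheses) with all 9 libraries (open squares), without control library c (circles) and without it after correction for transcript length (triangles). The stress response list is at -0.47 and cholesterol synthesis at 0.30 without control library c, and cytosolic ribosomal proteins move from 0.52 to 0.17 with the length correction.

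The BMP target list had a median of 0.54 over all 9 libraries and 0.38 without control library c, where 2 of 10 rose. ID3, an inhibitor of differentiation that blocks helix-loop-helix factors, stood at 138, 124 and 22.4 CPM in controls and 249.7, 264 and 226 CPM in UXS1-labelled libraries (0.90, SE 0.16, edgeR adjusted p = 0.01895). ID2 stood at 21.9, 21.4 and 24.2 and 30.9, 31.6 and 30.6 CPM (0.51, edgeR adjusted p = 0.01799), and ID1 at 268, 249 and 141 and 393, 425 and 357 CPM (0.59, edgeR adjusted p = 0.0644, called by DESeq2). In all 3 ID genes every UXS1-labelled library was above every control. ID3 and ID1 were lowest in control library c, ID3 by more than 5-fold below the other controls, whereas ID2 in control library c was above the other controls. Among the 10, edgeR called 0 with all 9 libraries, with 5 higher at an unadjusted p below 0.05 and 3 called by DESeq2, and ID3 stood at 1.38 (edgeR adjusted p = 0.222). Of all genes tested, 0.49% rose without control library c. With all 9 libraries 10.4% were higher at an unadjusted p below 0.05.

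Other rises were spread over unrelated functions. TRIM31, a ubiquitin ligase, stood at 17.3, 17.1 and 0.955 CPM in controls and 27.96, 26.4 and 30.7 CPM in UXS1-labelled libraries (0.71, edgeR adjusted p = 0.00682). RASL11A, a small GTPase-like protein, stood at 5.11, 4.401 and 2.44 and 8.42, 9.39 and 8.61 CPM (0.88, edgeR adjusted p = 0.0204). UBA7, the activating enzyme of ISG15, stood at 8.100, 7.71 and 7.001 and 11.3, 12.6 and 12.8 CPM (0.62, edgeR adjusted p = 0.0174). The 3 genes had all controls below all UXS1-labelled libraries, and TRIM31 was almost absent from control library c (1.27 over all 9 libraries, edgeR adjusted p = 0.321). CYP24A1, the vitamin D hydroxylase, rose by 0.50, KRT7, a keratin of bile duct and other epithelia, by 0.56, LIPC, hepatic lipase, by 0.56, and HACD1, an enzyme of fatty acid elongation, by 0.59. Control library c was the lowest library in these 4, and over all 9 libraries CYP24A1 stood at 1.04, KRT7 at 1.03 and LIPC at 1.00 (edgeR adjusted p = 0.382, 0.2705 and 0.245). TAGLN, a smooth muscle actin-binding protein, rose by 0.61 and IGFBP3, the main carrier of insulin-like growth factors in blood, by 0.58. HHLA2, an immune checkpoint ligand, rose from 5.62 and 6.47 CPM in controls a and b to 9.62, 9.299 and 10.03 CPM (0.66, edgeR adjusted p = 0.0204), but stood at 26.1 CPM in control library c, so its log2 fold change was -0.40 with all 9 libraries. ALDOC, a glycolytic aldolase, rose by 0.50 and was at 14.96 CPM in control library c, within the UXS1-labelled range (0.30 over all 9 libraries, edgeR adjusted p = 0.335). The other rises among the 25 largest were AP1M2 (0.81), ZNF519 (0.65), RBIS (0.61), CLEC2B (0.58), TCEAL9 (0.56), GNG11 (0.55), DNAJC15 (0.51) and SPANXD (1.16), the last a member of a family with near-identical copies that can share reads. Control library c was above the UXS1-labelled libraries for GNG11 and ZNF519 and within their range for CLEC2B and DNAJC15. Over all 9 libraries these stood at 0.28, 0.33, 0.35 and 0.33 (edgeR adjusted p of 0.457, 0.4695, 0.342 and 0.289).

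Ribosomal and respiratory chain genes lay mostly above controls, and how many passed depended on the test. Of 79 cytosolic ribosomal protein genes, all were above 0 in both fits and 78 had every UXS1-labelled library above all 3 controls (15.3% of all genes did), with medians of 0.60 over all 9 libraries and 0.52 without control library c. Of these, 2 rose without control library c and 12 were called higher by DESeq2. When all 9 libraries were used, edgeR called 0, with 76 higher at an unadjusted p below 0.05, and DESeq2 called 51. RPS26, of the small subunit, stood at 184, 175 and 197 CPM in controls and 405, 372 and 335 CPM in UXS1-labelled libraries (1.04, SE 0.18, edgeR adjusted p = 0.0178), and RPL24, of the large subunit, at 182, 175 and 194 and 275, 296 and 255 CPM (0.62, edgeR adjusted p = 0.0495). In both, the groups did not overlap, and reads of ribosomal protein genes may be shared with processed pseudogenes. Complex I had a median of 0.32 without control library c and complexes II to V one of 0.37, and edgeR called 0 of 38 in each, with 25 and 26 higher at an unadjusted p below 0.05 and 2 and 8 called by DESeq2. Their medians with all 9 libraries were 0.38 and 0.42, with 0 calls in edgeR, 27 in each higher at an unadjusted p below 0.05, and 12 and 17 called by DESeq2. Of all genes tested, 10.2% were higher at an unadjusted p below 0.05 without control library c and 10.4% with all 9 libraries. NDUFA2, a complex I subunit, stood at 13.1, 12.5 and 10.8 and 24.3, 28.4 and 21.6 CPM (0.95, edgeR adjusted p = 0.118), and COX7B, of complex IV, at 101, 97.96 and 93.5 and 180.5, 188 and 163 CPM (0.82, edgeR adjusted p = 0.0724). Among 81 mitochondrial ribosomal proteins (median 0.25 over all 9 libraries and 0.20 without control library c) DESeq2 called 15 higher when control library c was included and 6 when it was not. In edgeR MRPS18C rose, from 21.2, 23.3 and 24.8 CPM to 32.3, 28.8 and 29.3 CPM (0.43, edgeR adjusted p = 0.0456), while MRPL43 (0.60, edgeR adjusted p = 0.0881) and MRPL17 (0.64, edgeR adjusted p = 0.105) did not pass. The 13 mRNAs encoded in mitochondrial DNA had a median of -0.03 over all 9 libraries and 0.06 without control library c, with 0 called by edgeR, DESeq2 or limma-voom and 0 at an unadjusted p below 0.05 in either fit.

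These transcripts are short, and transcript length moved with the group. Per doubling of length, relative log2 CPM changed by 0.05, 0.07 and 0.13 in control libraries a, b and c and by -0.03, -0.07 and -0.01 in UXS1-labelled libraries. Among the shortest transcripts, those under 1000 bases, the median log2 fold change of 733 tested genes was 0.35 without control library c, those from 2000 to under 3000 bases one of -0.00 and those of 6000 bases or more one of -0.06. The shift was not limited to ribosomal and respiratory genes: the 625 short transcripts outside those lists had a median of 0.32. After a correction for length within each library, the medians without control library c came down to 0.05 in the mitochondrial ribosome, 0.06 in complexes II to V, 0.08 in complex I and 0.17 among ribosomal proteins of the cytosol. The same correction left the stress response at -0.46, cholesterol synthesis at 0.28, ERK feedback genes at -0.25 and BMP targets at 0.36. The 13 mRNAs encoded in mitochondrial DNA moved from 0.06 to -0.29 with this correction. Of the 62 rises and 135 falls, 48 and 131 had the same call after it. RPS26 kept its call (0.84, edgeR adjusted p = 0.00124) and RPL24 did not (0.15, edgeR adjusted p = 0.164). LSM3, a splicing factor of the U6 complex (0.87 before and 0.92 after, edgeR adjusted p = 0.009405), kept it as well, and TOMM6, of the mitochondrial import pore (0.73 and 0.26, edgeR adjusted p = 0.0585), did not. S100A4, a short calcium-binding protein mRNA at 843, 808 and 1161 and 1445, 1629 and 1358 CPM, did not pass before the correction (0.83, edgeR adjusted p = 0.103) and rose after it (0.32, edgeR adjusted p = 0.0355). COX7B of complex IV also passed only after the correction (0.72, edgeR adjusted p = 0.0190). The nuclear and histone RNAs, listed because their level varies with RNA quality, had medians of -0.45, -0.36 and 0.96 in control libraries a, b and c and of -0.01, 0.08 and 0.04 in UXS1-labelled libraries on the relative log2 scale. The part of RNA quality or library preparation in these shifts was not tested.

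**Figure D5:**
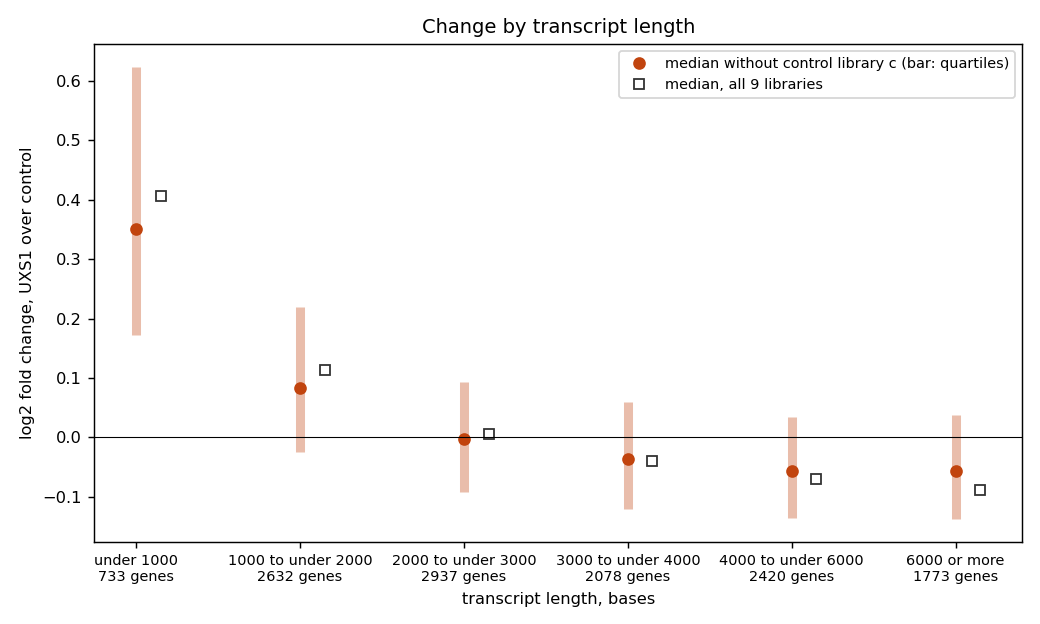
Median log2 fold change of UXS1-labelled over control libraries (y axis) for tested genes in 6 classes of transcript length in bases (x axis), without control library c (circles, bars spanning the quartiles) and with all 9 libraries (squares). The class under 1000 bases is at 0.35 without control library c and the longest class at -0.06.

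Some lists had medians that differed between the fits. For the NF-kB and inflammation list the median was 0.51 over all 9 libraries and 0.25 without control library c, and their median relative log2 CPM was -1.03 in control library c against 0.07 and -0.01 in the other controls. NFKBIZ, a nuclear I-kappa-B protein, was the 1 of 17 that rose without control library c (8 were higher at an unadjusted p below 0.05 and DESeq2 called 3), at 37.97, 36.8 and 29.8 CPM in controls and 49.2, 49.3 and 46.9 CPM in UXS1-labelled libraries (0.36, edgeR adjusted p = 0.0339). Secreted hepatocyte proteins had medians of 0.37 and 0.04 in the same fits, with -1.05 in control library c against 0.28 and 0.12 in the other controls. ITIH2, a hyaluronan-binding plasma protein, was the 1 of 17 that fell, from 199 and 203 CPM in controls a and b to 152, 144 and 151 CPM (-0.45, SE 0.05, edgeR adjusted p = 0.00219), and stood at 27.5 CPM in control library c, so that its log2 fold change with all 9 libraries was 0.05. CEBPA, a factor of the hepatocyte program, stood at 108, 92.96 and 40.04 and 126, 143 and 119 CPM and did not pass (0.36, edgeR adjusted p = 0.118). The 31 DNA replication genes had medians of 0.11 and 0.02, with 0 called by edgeR without control library c, 4 at an unadjusted p below 0.05 and 0 called by DESeq2. Of 30 mitosis genes (0.11 and 0.00) 1 rose, SPC24, a kinetochore subunit, at 12.7, 12.4 and 10.6 and 17.2, 17.9 and 17.7 CPM (0.48, edgeR adjusted p = 0.0239). CD68, a lysosomal protein used as a macrophage marker, rose from 71.9 and 72.9 CPM to 94.8, 104 and 97.2 CPM (0.44, edgeR adjusted p = 0.00732), and stood at 129.7 CPM in control library c, which left 0.11 over all 9 libraries (edgeR adjusted p = 0.798), while the 4 leukocyte markers stayed at or under 3.75 CPM in sum in these 6 libraries. The p53 targets and interferon response genes had medians of -0.08 and 0.06 over all 9 libraries and -0.02 and 0.08 without control library c. In both fits edgeR, DESeq2 and limma-voom called 0 of them, with 2 of 15 and 1 of 16 at an unadjusted p below 0.05 over all 9 libraries and 1 and 3 without control library c. Of all genes tested, 10.4% were higher and 7.37% lower at that unadjusted p over all 9 libraries. Without control library c these shares were 10.2% and 8.98%, and by adjusted p 0.49% rose and 1.07% fell.

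The siRNA against MRPL42 served as a second targeting siRNA in the same cells. MRPL42 mRNA itself stood at 104, 93.05 and 81.8 CPM there, 100.4, 118 and 147 CPM in controls and 131, 115 and 126 CPM in UXS1-labelled libraries, and did not pass against control (-0.23 without control library c, edgeR adjusted p = 0.263). The comparison with control shares the control libraries, so the values are set side by side. CPLX2 stood at 7.88, 8.02 and 7.71 CPM in the MRPL42 siRNA libraries, STC2 at 66.5, 58.2 and 62.8 CPM and ASNS at 130.5, 100.4 and 105 CPM, and their log2 fold changes without control library c were -0.76, -0.64 and -1.17 there, against -0.88, -0.76 and -1.19 in UXS1-labelled libraries. DUSP6 stood at 116, 137 and 122 CPM, INSIG1 at 182, 168 and 164 CPM and ID3 at 304, 195 and 258 CPM, with log2 fold changes of -0.58, 0.41 and 0.95 against -0.63, 0.47 and 0.90. Both targeted groups lay on the same side of controls a and b in these 6 genes. The stress response list had a median of -0.42 without control library c in the MRPL42 siRNA comparison, and cholesterol synthesis one of 0.35. Tested against each other, the 2 targeting siRNAs differed in 0 of 12657 genes (0%) with edgeR in both fits and with DESeq2, with 218 genes (1.72%) at an unadjusted p below 0.05 in the fit of 9 libraries and 692 (5.47%) without control library c. UXS1 mRNA differed between them by -0.08 (95% confidence interval -0.19 to 0.04, edgeR adjusted p = 0.847), ASNS by -0.02 (-0.23 to 0.19) and STC2 by -0.12 (-0.28 to 0.04). The MRPL42 siRNA libraries were themselves spread out. On the second principal component (15.5% of the variance) MRPL42 siRNA libraries a, b and c lay at -17.9, 11.3 and -9.7. Controls a and b lay at 17.5 and 21.9 there, and UXS1-labelled libraries at -6.6, -9.4 and 0.32. This spread enters the test, and no fit omitting an MRPL42 siRNA library was run for it. A p-value that misses the threshold does not show that both siRNAs act alike, and no change described here was shown to be particular to the libraries labelled UXS1 siRNA.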

How the data were processed

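Poly(A) RNA libraries were made by bead capture of mRNA, fragmentation, reverse transcription, adapter ligation and PCR, per the labels' protocols. Their strand setting was not stated there, so overlapping or antisense genes may have exchanged reads. The build hg38 and the tools HISAT2, Bowtie2, fastp and edgeR are named in the submitters' processing notes, without roles; the counting program and annotation were not stated. The authors deposited 1 table of estimated counts per gene, not divided by depth or length; its 9 further columns of per-sample values were not used. Columns were assigned by the group in their names. Those of the UXS1 group have 2 letters of the symbol swapped, and their letters a, b and c could not be tied to repeat numbers.

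Estimated counts were rounded to whole numbers. Genes were filtered by filterByExpr over 9 libraries, and the same 12657 genes were used in both fits. They were scaled by TMM and tested two-sided with edgeR 4.0.16 (quasi-likelihood, 1 mean per group) in R 4.3.3, with Benjamini-Hochberg adjustment over all genes tested and a threshold of 0.05. Standard errors and 95% confidence intervals come from that fit. The fit was tested on simulated data. These held no outlying library and no trend with transcript length, so they do not show how the fit handles either. Every pair of libraries differed by more than counting noise (lowest mean chi-square of 3.34 a gene). Counts without molecular identifiers are not independent molecules.

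Transcript length was the median over principal transcripts in GENCODE 29 on GRCh38, which holds 20128 of the 20379 identifiers and gave coordinates. The length correction used an offset per library from a lowess curve (span 0.3). Promoter sequences came from RefSeq on GRCh38.p14.

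The 36 gene lists (891 entries, 886 in the table) and the genes compared were chosen with earlier results of these data known, and no set test was run. Named genes are UXS1 and MRPL42, all genes past the threshold with 9 libraries, the 25 largest rises and 25 largest falls without control library c at 5 CPM or more, up to 5 called members per list role or the 2 with the smallest p, and fixed regulators. Alternatives were DESeq2 1.42.0, upper quartile scaling, other count filters, limma-voom (limma 3.58.1) with and without library weights, length correction and the compared groups alone. Each control or UXS1-labelled library was also omitted in turn, but no MRPL42 siRNA library was.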

Additional observations from a re-analysis of the deposited data

How the results depend on the processing

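With all 9 libraries the 2 calls became 460 with DESeq2 (314 higher, 146 lower), 1315 with limma-voom and library weights (873 higher, 442 lower), 9 with the length correction (1 higher, 8 lower) and 282 in the 6 compared libraries alone (260 higher, 22 lower). Omitting 1 of the 6 compared libraries gave 0 to 197 calls, and 0 for each of the 5 other than control library c. Without control library c the 197 calls (62 higher, 135 lower) became 397 with DESeq2 (227 higher, 170 lower), 298 with no filter on low counts (132 higher, 166 lower), 1249 with limma-voom and library weights (703 higher, 546 lower), 325 with the length correction (134 higher, 191 lower), 1344 in the 5 compared libraries alone (884 higher, 460 lower), and, with a second library omitted, 21 (control a), 37 (control b), 57 (UXS1 a), 105 (UXS1 b) and 84 (UXS1 c). DESeq2 kept 193 of the 197 calls, the length correction 179 and omission of control library a 21. The share of higher calls therefore depends on the fit. The fits of the compared libraries alone left out the MRPL42 siRNA group, which otherwise shared the estimate of the spread. For cytosolic ribosomal proteins that group was spread out, with median relative log2 CPM of 0.56 (a), -0.22 (b) and 0.30 (c). The same medians were 0.19, 0.27 and 0.06 in UXS1-labelled libraries and -0.32, -0.36 and -0.50 in controls. The part of this spread in the number of calls was not tested, nor was any other cause. UXS1 siRNA against MRPL42 siRNA stayed at 0 calls, and UXS1 mRNA was never called, in every alternative run. For these 2 results the alternatives started from all 9 libraries, and none omitted a single MRPL42 siRNA library.

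The 114 named genes compared without control library c include genes that did not pass in that fit. Of the 114, 93 kept their sign but no longer passed with all 9 libraries. HHLA2 and ITIH2 changed sign there and lost their calls too. A call was also lost in 76 genes without control library a, 69 without b, and 54, 39 and 44 without UXS1-labelled libraries a, b and c. Of 22 list medians 15 moved by more than 1 SD with all 9 libraries, 8 with the length correction and 3 and 7 without control libraries a and b. Of the 114 genes, 4 changed sign. UGDH, which stood at a log2 fold change near 0, turned to 0.00219 (DESeq2), 0.0110 (library weights), 0.0237 (length correction), 0.0208 (without control library b) and 0.0287 (without UXS1-labelled library b). DDIT3 turned to -0.0242 (library weights), -0.284 (length correction), -0.00636 (without control library b) and -0.0415 (without UXS1-labelled library b). With all 9 libraries HHLA2 stood at -0.40 and ITIH2 at 0.0549 (edgeR adjusted p = 0.697 and 0.966). The cause was not tested.

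No paired analysis was possible because the columns carry letters that no label ties to the repeat numbers. Genes under a few CPM, such as MT1X, rest on few counts and their changes have wide errors.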
